A study of Bos taurus with 28 samples.

Results

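Muscle-rich uterine biopsies were 13 of 28 bovine RNA-seq libraries, each from the uterus of a different heifer. They were chosen by the share of their reads on ACTA2 (ENSBTAG00000014614), the gene of smooth muscle actin. A heifer was called muscle-rich at 1500 or more CPM (the count of a gene divided by the total count of the library and multiplied by 1000000), and the other 15 heifers were called muscle-poor. The groups of the study were HF (10 heifers, inseminated with semen of high-fertility bulls), LF (10 heifers, inseminated with semen of low-fertility bulls) and CTRL (8 heifers, not inseminated). All heifers came to a synchronised oestrus, HF and LF heifers were sampled 12 h after insemination, and semen of 5 bulls per treatment was used, with 2 heifers per bull. The labels give a Holstein-Friesian background, whereas the animal table of the study lists beef crosses. The paper describes the heifers as cross-bred and the bulls that gave the semen as Holstein-Friesian. The tissue was taken after slaughter with a biopsy punch from the intercaruncular area of the horn on the side of ovulation, and the endometrium was cut away from the myometrium with a blade before freezing. Heifers are named by treatment and number, and HF1 to HF5, LF1 to LF5 and CTRL1 to CTRL4 made up study replicate 1.

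The wall of the uterus has an inner mucosa, the endometrium, with epithelium, glands, stroma and vessels, and an outer coat of smooth muscle, the myometrium. Smooth muscle cells contract when calcium activates myosin light chain kinase, which lets myosin pull on filaments of actin. The same proteins are made by the muscle cells of vessel walls, so high levels of their transcripts in a biopsy can come from myometrium or from vessels. In a bulk library, more muscle cells and more muscle RNA per cell cannot be told apart.

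Total counts ranged from 15458403 to 25633259 in muscle-rich and from 14872812 to 24024538 in muscle-poor heifers, and the mean log10 total differed by 0.00145 between the classes (permutation test, 2-sided, p = 0.944). At least 1 read fell on 16631 to 17152 genes in muscle-rich and on 16754 to 17144 genes in muscle-poor heifers. The 10 genes with most reads took 6.11% to 9.38% of the counts in muscle-rich and 5.48% to 8.16% in muscle-poor heifers. The precision of a value depends on these depths, on the number of heifers and on the spread between them. Each library came from a separate heifer, so the spread between libraries includes the spread between animals.

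ACTA2 reached 1912, 3174 and 6331 CPM (lowest, median and highest) in muscle-rich heifers and 249, 467 and 1325 CPM in muscle-poor heifers. These values made the classes and are given as a description only. LF8 at 1912 CPM was just inside the threshold and HF1 at 1325 CPM just outside it. No muscle-poor library was free of ACTA2, and the lowest, LF3, held 5370 reads of the gene. With treatment in the fit the log2 fold change (log2FC) of ACTA2, muscle-rich over muscle-poor, was 2.83 ± 0.22 (SE), or 7.09-fold.

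The other gene that marks muscle here, MYLK (ENSBTAG00000014567), encodes myosin light chain kinase. It reached 147, 488 and 1265 CPM in muscle-rich and 66.2, 124 and 369 CPM in muscle-poor heifers, with a log2FC of 2.07 ± 0.29. The classes overlapped in MYLK. All 13 muscle-rich heifers lay above the muscle-poor median, but 4 of them, LF8 at 147 CPM, LF7 at 151 CPM, LF1 at 206 CPM and CTRL5 at 232 CPM, lay below the muscle-poor heifer HF1 at 369 CPM. Across the 28 heifers Spearman's rank correlation between MYLK and ACTA2 was 0.895, and it was 0.758 within the muscle-rich and 0.650 within the muscle-poor class. These correlations describe libraries that share a scaling to their own total.

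**Figure D1:**
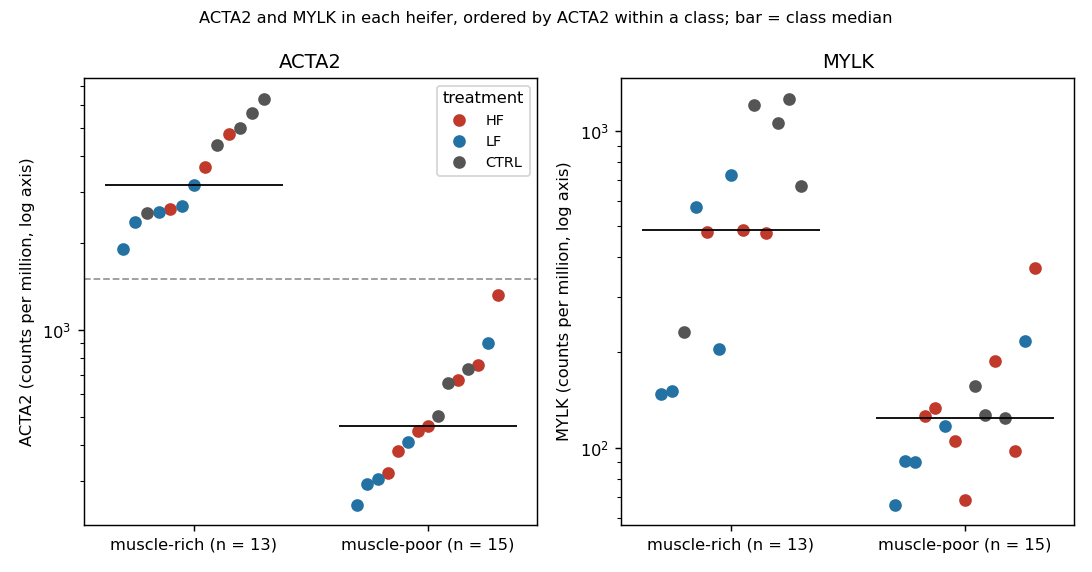
ACTA2 (left) and MYLK (right) in CPM on log axes, 1 point per heifer coloured by treatment, ordered by ACTA2 within the muscle-rich (n = 13) and muscle-poor (n = 15) class, with a bar at the class median and a dashed line at 1500 CPM. ACTA2 separates the classes by construction, while 4 muscle-rich heifers fall at 147 to 232 CPM of MYLK, below the 369 CPM of the highest muscle-poor heifer.

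Of 15331 genes tested for level, 383 (2.50%) were at least 2-fold higher and 144 (0.939%) at least 2-fold lower in muscle-rich heifers. The balance between the directions depended on the fit, with 305 higher and 294 lower genes when libraries were scaled by total count alone, 318 and 473 among HF heifers only, and 595 and 1088 in study replicate 1 alone. The lower genes were 65 at a threshold of 1000 CPM, 72 at 2000 CPM, 84 without the 4 heifers nearest the threshold and 35 when MYLK made the split, and the MYLK split kept 16 (11.1%) of the 144 lower and 258 (67.4%) of the 383 higher genes. Every gene was measured in the libraries that were used for the split, so no p-value is given for this contrast, and the standard errors describe scatter only. A gene whose 13 muscle-rich values all lay above its 15 muscle-poor values was rarer still, with 13 genes (0.0848%), and 0 genes had all muscle-rich values below all muscle-poor values. The median log2FC of all genes was −0.01. With library totals alone as the scaling it shifted by −0.15, and the fold changes below are relative to the median as scaled by edgeR's TMM method. Both sets held few reads per gene, with a median of 5.89 CPM for the higher genes and 2.74 CPM for the lower genes, against 24.1 CPM for all genes, on a scale that does not correct for gene length. At least 11 of 13 muscle-rich heifers lay above the muscle-poor median in 252 of the 383 higher genes, against 921 of all 15331. The heifer with most reads of a gene held a median of 13.2% of them in the higher genes, 11.2% in the lower genes and 6.39% in all genes.

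The deposited files give gene IDs without names, and 1522 IDs could be named from the study's own tables. Most names came from a sheet sorted by the strength of the LF against CTRL contrast, so named genes were not a neutral sample. Among 1519 named genes with enough reads 110 (7.24%) were at least 2-fold higher in muscle-rich heifers, against 273 (1.98%) of 13812 genes with no name, and 8 (0.527%) of the named and 136 (0.985%) of the other genes were at least 2-fold lower. Counts of list members below should be read against the 7.24% of named genes.

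The contractile filament genes stood 4 of 6 at 2-fold or more, with a median log2FC of 1.69, and none was lower. ACTA2 is among these 6, and without it 3 of 5 reached 2-fold, with a median of 1.68. Only 6 of the 16 genes of that list had a name. SMTN, which encodes smoothelin of contractile smooth muscle, reached 190, 372 and 536 CPM in muscle-rich and 67.1, 108 and 174 CPM in muscle-poor heifers (log2FC 1.80 ± 0.15). No muscle-rich value overlapped with a muscle-poor one. FLNA, the actin crosslinker filamin A, held 1494, 2899 and 5599 CPM in muscle-rich and 498, 1020 and 2237 CPM in muscle-poor heifers (1.68 ± 0.20), and HF1 with the highest muscle-poor level overlapped with 4 muscle-rich heifers. SYNM, an intermediate filament protein, reached 8.97, 74.4 and 218 CPM in muscle-rich and 7.88, 23.0 and 56.8 CPM in muscle-poor heifers (1.70 ± 0.36). ACTN1, an alpha-actinin, had a log2FC of 0.95 ± 0.17, and CALD1, the actin-binding caldesmon, of 0.43 ± 0.22. Summed over the 5 genes other than ACTA2, the level ranged from 2246 to 7945 CPM in muscle-rich and from 864 to 3195 CPM in muscle-poor heifers, and 9 of 13 muscle-rich heifers lay above the muscle-poor maximum.

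Genes that control contraction did not move as a group. MYLK was the only 1 of 5 named members at 2-fold. PPP1R12A, the targeting subunit of the myosin phosphatase that opposes MYLK, had a log2FC of 0.43 ± 0.24. ROCK1, a kinase that inhibits this phosphatase, had 0.05 ± 0.14, PPP1R12B, a relative of PPP1R12A, had −0.06 ± 0.26, and ARHGEF12, a guanine nucleotide exchange factor, had −0.23 ± 0.35. The classes overlapped in each of these 4 genes, as for ROCK1 with 31.0, 82.0 and 159 CPM in muscle-rich and 55.8, 83.4 and 121 CPM in muscle-poor heifers.

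Of 4 named transcription factors of smooth muscle, 1 was 2-fold higher. MYOCD, myocardin, the coactivator that drives the smooth muscle programme, reached 0.677, 5.73 and 42.3 CPM in muscle-rich and 0.0483, 0.948 and 4.01 CPM in muscle-poor heifers (2.79 ± 0.58). It was low in counts, and 8 of 13 muscle-rich heifers exceeded the highest muscle-poor value. SRF, the DNA-binding partner of myocardin present in most cells, had a log2FC of 0.49 ± 0.13, MEF2A of 0.19 ± 0.06 and MEF2D of −0.30 ± 0.18.

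Adhesion plaques tie the filaments to the membrane, and 3 of 6 named members of that list were 2-fold higher with a list median of 1.07. FERMT2, the integrin activator kindlin-2, reached 143, 215 and 348 CPM in muscle-rich and 94.5, 111 and 151 CPM in muscle-poor heifers (1.17 ± 0.10). Of 13 muscle-rich heifers 12 lay above all muscle-poor ones. VCL, vinculin, had a log2FC of 1.23 ± 0.15 and 10 such heifers. SYNPO2, an actin-binding protein of muscle, had 1.46 ± 0.46 and only 5 such heifers. ITGA8 stood at 0.97 ± 0.32, PARVA at 0.42 ± 0.18 and ITGA1 at 0.13 ± 0.30.

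The muscle-rich class was not uniform. Over the 8 smooth muscle genes other than ACTA2 at 2-fold or more (SMTN, SYNM, FLNA, MYLK, MYOCD, VCL, SYNPO2 and FERMT2), LF6, LF10, CTRL1, CTRL6 and CTRL7 exceeded every muscle-poor heifer in 8 of 8, HF3, HF6 and CTRL4 in 7, and HF5 in 6. LF8 did so in 3, LF7 and CTRL5 in 2 and LF1 in 1. These 8 genes were themselves picked by their fold in this split. All 21 named genes of the filament, contraction control, transcription factor and adhesion lists were also counted. ACTA2 is among these 21, and in it every muscle-rich heifer exceeds every muscle-poor heifer by the rule of the split. Over the 21 genes LF8 exceeded every muscle-poor heifer in 6, CTRL5 in 4, LF7 in 3 and LF1 in 2. The count was 8 for HF5, 9 each for HF3 and HF6, and 11 to 19 for the other 6 muscle-rich heifers. LF8, CTRL5, LF7 and LF1 are the 4 heifers whose MYLK overlapped with the muscle-poor class. In SYNPO2 they held 11.6 CPM (LF8), 13.7 CPM (LF7), 21.1 CPM (LF1) and 35.1 CPM (CTRL5), all under the muscle-poor median of 41.0 CPM, and in MYOCD they held 0.760, 0.677, 1.87 and 1.01 CPM. In SMTN, by contrast, they held 190, 434, 243 and 245 CPM, above the highest muscle-poor value of 174 CPM. LF7 and LF8 also had the fewest detected genes of all heifers, 16631 and 16669, and the part of this in their muscle gene levels was not tested. Without these 4 heifers, an alternative chosen after seeing the data, the log2FC was 2.44 for MYLK, 3.23 for MYOCD and 1.94 for SYNPO2, and the count of genes at least 2-fold lower in muscle-rich heifers was 62 in place of 144.

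**Figure D2:**
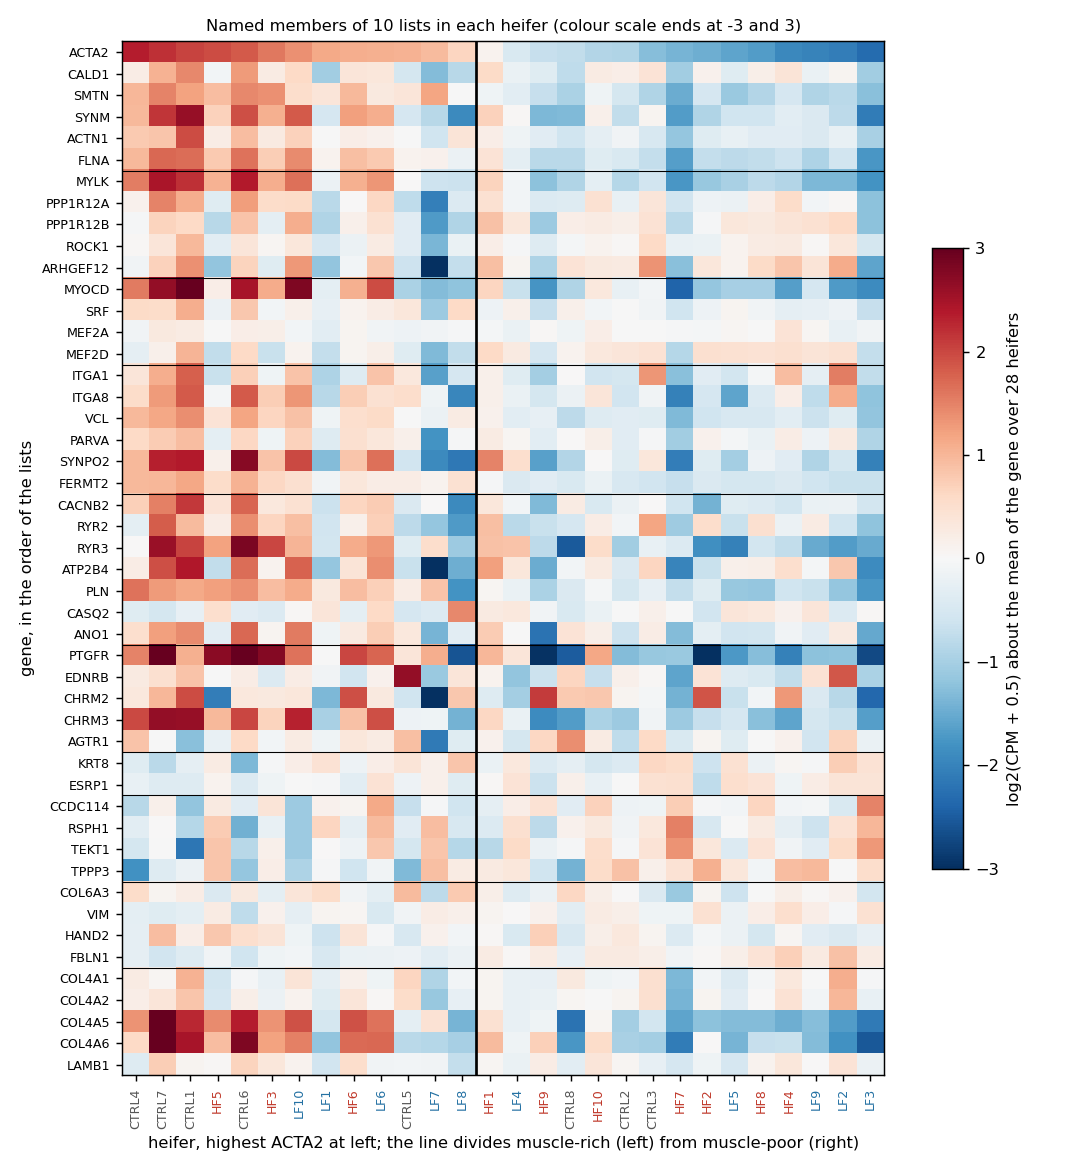
Level of each named member of 10 lists in each heifer, as log2(CPM + 0.5) about the mean of the gene over 28 heifers, with red for high and blue for low and colours ending at −3 and 3. Heifers run along the x axis with the highest ACTA2 at left, muscle-rich left of the line and muscle-poor right of it, and names are coloured by treatment (HF red, LF blue, CTRL grey). LF8, LF7, CTRL5 and LF1 are pale or blue in SYNPO2 and MYOCD although they lie on the muscle-rich side.

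Calcium stores and channels supply the signal for contraction, and 3 of 7 named members of that list were 2-fold higher, with a median log2FC of 0.85 and none lower. PLN, phospholamban, which restrains the calcium pump of the sarcoplasmic reticulum, reached 5.47, 39.2 and 63.6 CPM in muscle-rich and 5.75, 13.3 and 21 CPM in muscle-poor heifers (1.69 ± 0.22). All muscle-rich heifers but LF8, which had the lowest value of all 28, lay above the muscle-poor maximum. RYR3, a calcium release channel, reached 2.38, 12.9 and 42.9 CPM in muscle-rich and 0.569, 3.09 and 10.8 CPM in muscle-poor heifers (2.10 ± 0.46). CACNB2, a subunit of voltage-gated calcium channels, stood at 1.0 ± 0.27, the calcium-activated chloride channel ANO1 at 0.85 ± 0.28, the release channel RYR2 at 0.59 ± 0.32 and the calcium pump ATP2B4 at 0.65 ± 0.46. CASQ2, the calsequestrin of cardiac muscle, was at or below 2.18 CPM in every heifer.

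Among receptors that drive uterine contraction, 2 of 5 named members were 2-fold higher. PTGFR, the receptor of prostaglandin F2alpha, had the largest log2FC of any listed gene, 3.27 ± 0.67. It reached 0.304, 14.4 and 74.1 CPM in muscle-rich and 0, 1.48 and 10.3 CPM in muscle-poor heifers, and it held no read in HF2. CHRM3, the muscarinic receptor that couples acetylcholine to contraction, reached 0.355, 3.99 and 13.8 CPM in muscle-rich and 0.119, 0.687 and 3.03 CPM in muscle-poor heifers (2.62 ± 0.50). CHRM2, a second muscarinic receptor, stood at 0.61 ± 0.51, the endothelin receptor EDNRB at 0.27 ± 0.34 and the angiotensin receptor AGTR1 at −0.01 ± 0.25, all with classes that overlapped widely. Of the relaxing pathways 0 of 3 named genes reached 2-fold, and RXFP1, the relaxin receptor, PRKG1, the kinase activated by cyclic GMP, and PTGER4, a prostaglandin E2 receptor, stood at 0.79 ± 0.56, 0.78 ± 0.39 and 0.75 ± 0.21.

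Basement membrane genes split by chain. COL4A5 reached 54.0, 383 and 1301 CPM in muscle-rich and 30.2, 58.4 and 194 CPM in muscle-poor heifers (2.55 ± 0.37), and COL4A6 reached 22.3, 117 and 431 CPM against 8.29, 25.5 and 98.8 CPM (2.19 ± 0.45). These are the alpha5 and alpha6 chains of collagen IV, which are laid down around smooth muscle. The common chains COL4A1 and COL4A2 had log2FC of 0.07 ± 0.17 each, and LAMB1, a laminin chain, had 0.27 ± 0.13. COL4A1 was at 538, 988 and 2064 CPM in muscle-rich and 399, 974 and 2143 CPM in muscle-poor heifers. Among 5 named prostaglandin and leukotriene enzymes, PTGIS, which makes prostacyclin, was 2-fold higher (1.13 ± 0.22), and PTGES, PTGDS, ALOX12 and LTA4H lay between −0.11 and 0.16.

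Markers of the mucosa had small fold changes. The epithelial keratin KRT8 was at 49.2, 140 and 223 CPM in muscle-rich and 81.7, 122 and 212 CPM in muscle-poor heifers (0.09 ± 0.17), and the epithelial splicing factor ESRP1 was at 50.5, 59.9 and 90.5 CPM and 39.3, 77.7 and 95.5 CPM (−0.14 ± 0.11), with 12 of 13 muscle-rich heifers below the muscle-poor median of ESRP1 and 6 of 13 below that of KRT8. Only 2 of 18 genes of the epithelial list had a name, and their summed level was 99.7 to 275 CPM in muscle-rich and 121 to 300 CPM in muscle-poor heifers. All 4 named genes of ciliated cells, TPPP3, TEKT1, CCDC114 and RSPH1, lay between −0.31 and −0.03, and 11 of 13 muscle-rich heifers were below the muscle-poor median of TPPP3. Of 4 stromal genes 0 reached 2-fold. VIM, the intermediate filament of mesenchymal cells, stood at 0.01 ± 0.11, HAND2, a stromal transcription factor, at 0.46 ± 0.14 and COL6A3 at 0.38 ± 0.18. FBLN1, an extracellular glycoprotein, was lower, with 742, 970 and 1056 CPM in muscle-rich and 947, 1325 and 2049 CPM in muscle-poor heifers (−0.34 ± 0.09), and all 13 muscle-rich heifers lay below the muscle-poor median. With library totals alone as the scaling, which shifts all genes as given above, KRT8 stood at −0.08 and VIM at −0.16. The counts of heifers below a muscle-poor median use CPM on library totals. On that scale at least 11 of 13 muscle-rich heifers lay below the median in 4491 of all 15331 genes, and above it in 921.

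For other cell types the names allow less. MCAM, found on the mural cells of vessels and on smooth muscle, was the only named gene of 12 vascular mural markers, with 81.1, 129 and 259 CPM in muscle-rich and 61.6, 93.0 and 129 CPM in muscle-poor heifers (0.59 ± 0.13). The lymphatic markers MMRN1, LYVE1 and FLT4 had log2FC of 1.12 ± 0.33, 0.37 ± 0.20 and 0.16 ± 0.31. The mesothelial genes UPK3B and WT1 stood at 0.17 ± 0.11 and 0.10 ± 0.26, and the elastic fibre enzyme LOX at −0.08 ± 0.20. UCHL1, of neurons, stood at −0.65 ± 0.43, and the genes of dividing cells TYMS and HMGB2 at −0.14 ± 0.11 and −0.21 ± 0.12. The muscle-poor heifer HF7 held 42.3% of all UCHL1 reads, at 68.7 CPM against a muscle-poor median of 4.28 CPM. For the 15 endothelial, 17 immune, 10 striated muscle, 5 adipocyte, 6 blood and 7 steroid receptor genes of the lists 0 names were at hand, so the part of blood vessels and of myometrium in the muscle-rich class was not tested.

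**Figure D3:**
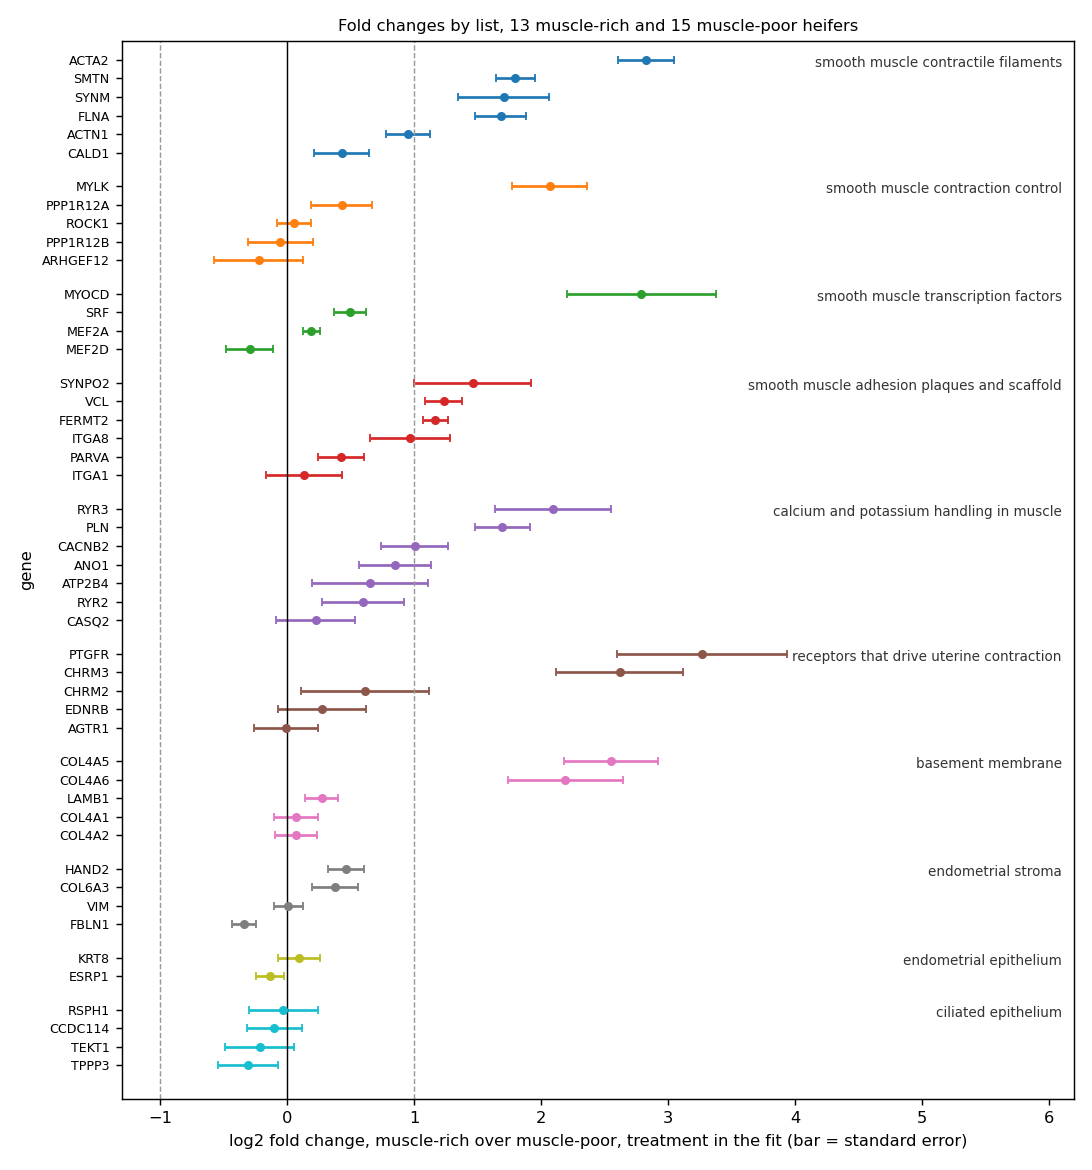
Log2 fold change of each named list member, muscle-rich (n = 13) over muscle-poor (n = 15) heifers with treatment in the fit, with bars of 1 standard error and dashed lines at 2-fold, grouped by list from top to bottom. Muscle genes reach from 3.27 (PTGFR) to −0.30 (MEF2D), and the 10 genes of the stroma, the epithelium and ciliated cells lie between 0.46 and −0.34.

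The genes whose level followed ACTA2 most closely over 28 heifers, by Spearman's rank correlation, were a gene without a name (ENSBTAG00000007196) with 0.968, a pair of other unnamed IDs with 0.953 each, CFL2, the cofilin of muscle, with 0.947, and another unnamed ID with 0.946. Of that pair ENSBTAG00000015441 had the larger log2FC, 3.74 ± 0.50. ENSBTAG00000007196 was an abundant transcript, with 1353, 2515 and 3736 CPM in muscle-rich and 217, 356 and 835 CPM in muscle-poor heifers, and its classes did not overlap. CFL2 reached 50.4, 75.6 and 188 CPM in muscle-rich and 23.9, 30.8 and 49.9 CPM in muscle-poor heifers (1.46 ± 0.14), and its classes also did not overlap. Next among named genes were HSPB6, a small heat shock protein of muscle, with a correlation of 0.945, the GTPase regulator RAP1GDS1 with 0.933, NEXN, a filament protein of muscle known as nexilin, with 0.927, and FERMT2 with 0.923. Within the muscle-rich class the rank correlation of CFL2 with ACTA2 was 0.802 and within the muscle-poor class 0.782. RAP1GDS1 reached 20.1, 64.3 and 111 CPM in muscle-rich and 11.4, 14.3 and 27.3 CPM in muscle-poor heifers (2.12 ± 0.17).

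Outside the lists the named genes with the largest fold changes held few reads. GPC5, a glypican, led with a log2FC of 3.71 ± 0.60 and reached 0, 3.11 and 21.2 CPM in muscle-rich and 0, 0.193 and 2.22 CPM in muscle-poor heifers. ASIC2, an acid-sensing ion channel, had 3.64 ± 0.46 and reached 0.0507, 1.5 and 5.99 CPM in muscle-rich and 0, 0.178 and 0.581 CPM in muscle-poor heifers. The chemokine CCL11 (eotaxin) had 3.43 ± 0.60 and the cytokine IL17B 3.21 ± 0.44. Signalling genes among these 10 were RGS17, a brake on G protein signals (3.22 ± 0.64), CCKAR, a cholecystokinin receptor (3.20 ± 0.84), and ADRB3, the beta3-adrenergic receptor (3.02 ± 0.48). ADRB3 held 0.101, 1.45 and 3.89 CPM in muscle-rich and 0, 0.202 and 0.516 CPM in muscle-poor heifers, and 11 of 13 muscle-rich heifers exceeded the muscle-poor maximum. The phospholipase PLA2G4E (3.28 ± 0.92), the chaperone CLGN (3.11 ± 0.44) and C1QL3 (3.02 ± 0.58) completed the group. PLA2G4E differed between the study replicates, with a log2FC of 0.98 in study replicate 1 alone and 5.73 in study replicate 2 alone.

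The named genes that were lowest in muscle-rich heifers changed less. ELF5, an epithelial transcription factor, had a log2FC of −1.41 ± 0.35 with 0.161, 1.09 and 1.82 CPM in muscle-rich and 0.624, 2.48 and 11.3 CPM in muscle-poor heifers, and all 13 muscle-rich heifers lay below the muscle-poor median. LGR5, the R-spondin receptor known from epithelial stem cells and glands, had −1.0 ± 0.36, with 2.11, 4.82 and 10.8 CPM in muscle-rich and 2.97, 10.7 and 37.1 CPM in muscle-poor heifers, with 12 of 13 below that median. FNDC1, a protein with fibronectin domains, had 18.3, 47.0 and 74.2 CPM in muscle-rich and 38.7, 81.9 and 299 CPM in muscle-poor heifers (−0.92 ± 0.27). In all of these the classes overlapped. The other 7, LRTM2, PATL2, E2F2, SERPINB12, TRIM14, TTLL10 and YIPF7, had log2FC of −1.31 to −0.91, and 6 of the 10 reached 2-fold. At least 11 of 13 muscle-rich heifers below the median was a condition for naming these 10. In CPM it held for 4491 of all 15331 genes.

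MYLK, PTGFR, COL4A5 and SMTN had fold changes above 0 within each treatment, though not every muscle-rich heifer was higher. For MYLK the log2FC was 1.77 among HF heifers, 1.77 among LF heifers and 2.86 among CTRL heifers. For PTGFR it was 3.17, 2.31 and 4.96, for COL4A5 2.23, 2.20 and 3.44, and for SMTN 1.78, 1.6 and 2.1, in the same order. Among LF heifers MYLK was at 147 CPM in LF8, 151 CPM in LF7 and 206 CPM in LF1, below the 217 CPM of the muscle-poor LF4. LF6 and LF10, both of study replicate 2, held 576 and 724 CPM. In SMTN the LF classes did not overlap, with 190 to 434 CPM in muscle-rich and 79.4 to 153 CPM in muscle-poor LF heifers. The differences between treatments in the fold changes were tested for HF against CTRL heifers only, as an interaction given below. Of the 383 genes at least 2-fold higher, 93.8% were above 0 among HF heifers, 100% among LF heifers and 99.7% among CTRL heifers, shares that the choice of these genes from the same heifers makes high. Of the 144 lower genes, 29 (20.1%) were at least 2-fold lower in study replicate 2 alone, against 131 (91.0%) in study replicate 1 alone.

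Whether the muscle content of a biopsy went with treatment bears on every comparison of the study, and treatment played no part in the split. Muscle-rich heifers were 3 of 10 in HF, 5 of 10 in LF and 5 of 8 in CTRL (Fisher-Freeman-Halton exact test, 2-sided, p = 0.415). By pairs, Fisher's exact test gave p = 0.342 for HF against CTRL (adjusted over 3 pairs 0.664), 0.664 for LF against CTRL (0.664) and 0.650 for HF against LF (0.664). Both heifers of a bull were muscle-poor for 2 HF bulls and 1 LF bull, both were muscle-rich for 1 LF bull, and the heifers differed for 3 HF and 3 LF bulls. Study replicate 2 held 8 muscle-rich heifers of 14 and study replicate 1 held 5 of 14 (Fisher's exact test, p = 0.449). In LF heifers these were 4 of 5 and 1 of 5.

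The level of ACTA2 itself differed between treatments by less than the spread between heifers. In HF heifers it was at 320, 713 and 4797 CPM and in CTRL heifers at 506, 3457 and 6331 CPM. The mean log2 level of HF heifers was 9.93 ± 1.43 (SD, n = 10) and that of CTRL heifers was 11.1 ± 1.54 (SD, n = 8), a difference of −1.15 (exact permutation test, 2-sided, p = 0.119, adjusted over 3 pairs 0.199). In LF heifers ACTA2 was at 249, 1406 and 3174 CPM with a mean log2 level of 9.93 ± 1.52 (SD, n = 10), a difference from CTRL of −1.15 (exact permutation test, p = 0.133, adjusted 0.199). HF and LF heifers differed by −0.0022 (permutation test, p = 0.998, adjusted 0.998). In study replicate 1 the difference was −0.50 for HF over CTRL and −1.61 for LF over CTRL, and in study replicate 2 it was −1.80 and −0.69 (exact permutation tests, p = 0.651, 0.159, 0.0794 and 0.540). With this spread a difference of this size was not detectable as a treatment effect.

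**Figure D4:**
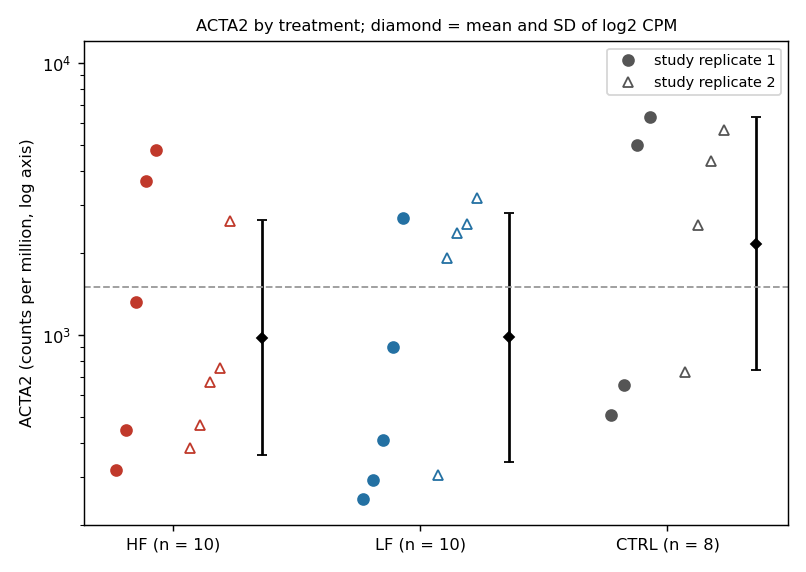
ACTA2 in CPM on a log axis for each HF, LF and CTRL heifer, with filled circles for study replicate 1, open triangles for study replicate 2, a diamond and bar for the mean and SD of log2 CPM, and a dashed line at 1500 CPM. Each treatment spans both sides of the line, with 3 of 10 HF, 5 of 10 LF and 5 of 8 CTRL heifers above it.

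With the class as a covariate, edgeR's quasi-likelihood test called 0 of 15331 genes (0%) for HF over CTRL, 0 for LF over CTRL and 0 for HF over LF at a Benjamini-Hochberg adjusted p under 0.05. At an unadjusted p under 0.05 there were 1784 (11.6%), 1201 (7.83%) and 1131 (7.38%) genes. The smallest adjusted p was 0.292, 0.462 and 0.484. Without the class edgeR also called 0 genes in each contrast, with 1980 (13.1%), 1165 (7.68%) and 1062 (7.0%) at an unadjusted p under 0.05. The biological coefficient of variation estimated by edgeR was 0.353 with the class in the model and 0.378 without it. DESeq2, the tool of the study, called 39 genes (0.242%) for HF over CTRL with the class and 114 (0.692%) without it, of which 36 were shared. For LF over CTRL these were 7 (0.0456%) with the class and 3 (0.0154%) without it, with 3 shared. For HF over LF they were 12 (0.0618%) with the class and 8 (0.0411%) without it, with 7 shared. The HF and LF contrasts use the same CTRL heifers.

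The 21 named muscle genes of these 4 lists had a median log2FC, HF over CTRL, of −0.39 with the class in the fit and −0.73 without it, against −0.02 for all genes in both fits. ACTA2, which made the class, is among the 21, so its move towards 0 is fixed by the split. Without ACTA2 the medians were −0.40 with the class and −0.67 with no class. With the class 17 of the 21 lay nearer to 0, and 19 were still below 0, against 21 without it. For LF over CTRL the median was −0.54 with the class and −0.75 without it, or −0.54 and −0.72 when ACTA2 was left out. In that contrast 18 of the 21 lay nearer to 0 with the class, and 21 of 21 were below 0 in both fits. For HF over LF the median lay further from 0 with the class, at 0.23 against 0.03 without it. Only 4 of the 21 lay nearer to 0 with the class there. For HF over CTRL, MYLK was at −0.42 ± 0.36 with the class and −1.3 ± 0.55 without it. FLNA was at −0.22 ± 0.25 and −0.89 ± 0.43, and MYOCD at −1.01 ± 0.71 and −2.28 ± 0.86. DESeq2 called 0 of the 21 with the class and 1 without it, SRF, whose edgeR log2FC was −0.54 ± 0.16 and −0.74 ± 0.18 (DESeq2 adjusted p = 0.109 and 0.0304). SRF held 35.8 to 43.6 CPM in the 3 muscle-rich HF heifers and 51.2 to 85.9 CPM in the 5 muscle-rich CTRL heifers, which did not overlap, and 24.9 to 38.3 CPM in the 7 muscle-poor HF and 37.5 to 44.6 CPM in the 3 muscle-poor CTRL heifers, which did. EDNRB and CEMIP, a binder of hyaluronan, were also called by DESeq2 only without the class. EDNRB had a log2FC of −1.34 ± 0.43 with the class and −1.46 ± 0.40 without it (DESeq2 adjusted p = 0.123 and 0.0376), so its fold hardly moved. CEMIP had −1.34 ± 0.61 with the class and −2.24 ± 0.60 without it (DESeq2 adjusted p = 0.256 and 0.0222). Single heifers weighed on both genes. CTRL5 held 66.7 CPM of EDNRB, against 10.6 to 19.1 CPM in the other CTRL heifers and 3.09 to 13.9 CPM in HF heifers. For CEMIP 1 heifer held 37.0% of all reads of the gene.

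Of 24 genes that the study's own tables picked out for treatment, 23 (95.8%) lay within 0.6 of 0 on the log2 scale between muscle-rich and muscle-poor heifers, as did 84.7% of all named genes and 86.8% of all genes tested. The last, GABRA4, a GABA receptor subunit, had 1.05 ± 0.96. These genes were chosen on these same heifers, so their direction by treatment is no independent evidence. In 22 of them fitted both ways, adding the class moved the HF over CTRL log2FC by a median of 0.0360 and at most 0.209. The median was 0.421 for the smooth muscle genes and 0.0798 for all genes. GABRA4 and AHSG are not among the 22, as they did not pass the count filter of the edgeR fit without the class. By DESeq2, GABRA4 had 5.08 ± 1.16 with the class and 4.41 ± 1.11 without it. Because ACTA2 made the class, a larger shift of genes that follow ACTA2 is in part fixed by the split. DESeq2 called 8 of the 24 for HF over CTRL with the class and 11 without it, and the 8 were among the 11. The calls of RWDD4 (DESeq2 adjusted p = 0.0963 with the class and 0.041 without it), LTA4H (0.0878 and 0.0330) and FSD1 (0.0689 and 0.0299) were lost with the class. PTGDS, a prostaglandin D synthase, had 1.09 ± 0.23 with the class and 1.13 ± 0.22 without it (DESeq2 adjusted p = 0.00756 and 0.000759). It held 221 to 296 CPM in muscle-rich HF and 79.5 to 187 CPM in muscle-rich CTRL heifers, and 236 to 516 CPM in muscle-poor HF and 118 to 201 CPM in muscle-poor CTRL heifers, with no overlap within either class. SLC7A3, a transporter of cationic amino acids, likewise had 2.12 ± 0.45 with the class and 2.09 ± 0.42 without it. It held 1.11 to 2.82 CPM in muscle-rich HF and 0.0556 to 0.776 CPM in muscle-rich CTRL heifers, and 0.869 to 3.62 CPM in muscle-poor HF and 0.195 to 0.611 CPM in muscle-poor CTRL heifers.

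**Figure D5:**
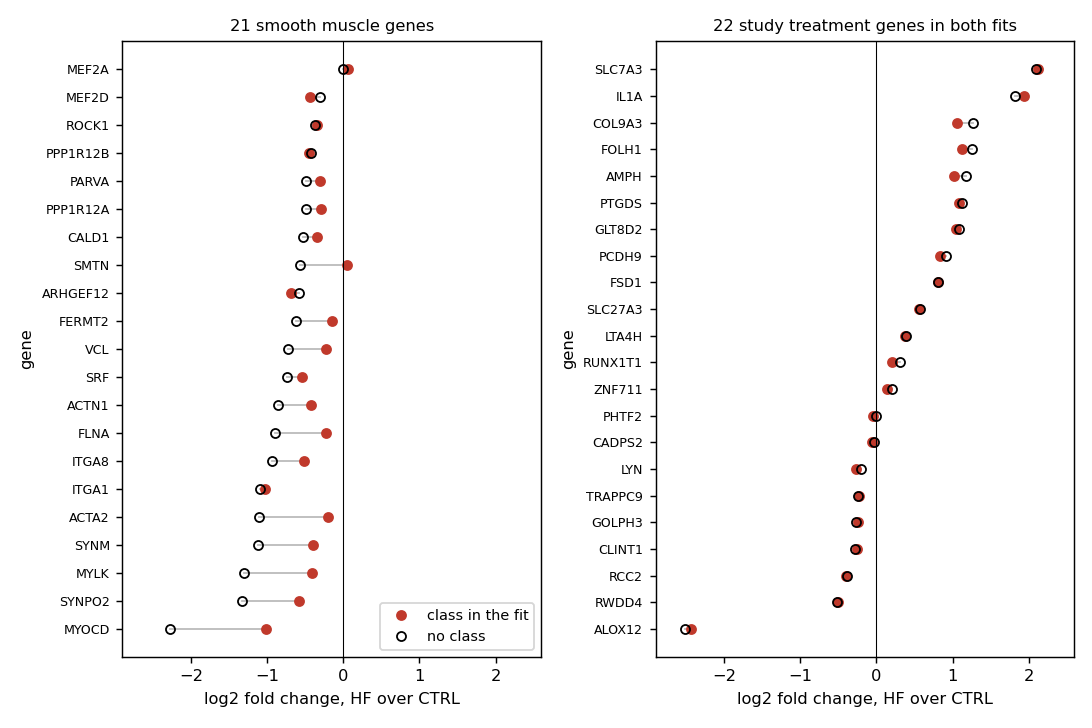
Log2 fold change, HF (n = 10) over CTRL (n = 8), from edgeR with the muscle class in the fit (filled red) and without it (open), for 21 smooth muscle genes (left) and 22 genes from the study's tables (right), 1 gene per line. The median shift is 0.421 for the muscle genes and 0.0360 for the others. The muscle genes include ACTA2, which made the class, so part of their shift is fixed by the split.

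Some genes were called by DESeq2 only once the class was in the model, of which 0 were among the 21 muscle genes. CFL2 was lower in LF than in CTRL heifers with the class (edgeR log2FC −0.75, DESeq2 adjusted p = 0.0303) and had −1.03 and an adjusted p of 0.395 without it. Its level was 50.4 to 75.6 CPM in muscle-rich LF and 53.7 to 188 CPM in muscle-rich CTRL heifers, and 23.9 to 37.5 CPM in muscle-poor LF and 34.1 to 41.0 CPM in muscle-poor CTRL heifers. ACTA2, which CFL2 followed closely, had a log2FC of −0.78 ± 0.26 for LF over CTRL with the class and was at 1912 to 3174 CPM in muscle-rich LF and 2545 to 6331 CPM in muscle-rich CTRL heifers, and its part in the CFL2 difference was not tested. CBLN2, a secreted protein of synapses, was higher in HF than in LF heifers with the class (2.25, DESeq2 adjusted p = 0.00162) and had 1.06 and an adjusted p of 0.807 without it. It held 129 to 163 CPM in muscle-rich HF and 41.0 to 128 CPM in muscle-rich LF heifers, and 10.2 to 164 CPM in muscle-poor HF and 1.01 to 17.0 CPM in muscle-poor LF heifers. By edgeR neither passed, at adjusted p = 0.462 for CFL2 and 0.484 for CBLN2. For HF over CTRL, 0 of 15715 genes differed between the classes by the edgeR interaction test (213, or 1.36%, at an unadjusted p under 0.05), and DESeq2 called 2 of 19438 (0.0103%).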

How the data were processed

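RNA of 1 uterine biopsy from each of 28 heifers was sequenced after selection of polyadenylated RNA with a stranded kit. After trimming, the authors used the assembly ARS-UCD1.2 for alignment, and the deposited values are raw counts of unique alignments to each of 24596 Ensembl IDs. Tools named by the submitters are STAR (2.6.1b) and Subread (1.6.3). The sources used here do not state whether strand was used, so overlapping genes on opposite strands cannot be told apart.

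Names came from the study's tables, which pair 1522 IDs with a symbol. Columns of fold changes and p-values there were not used. Breed, bull and study replicate came from its animal table.

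The members and gene lists were chosen with earlier results of these data known. Heifers were split at 1500 CPM of ACTA2 on the total of the deposited counts. Fold changes were fitted in R 4.3.3 with edgeR 4.0.16 (TMM, filterByExpr with a minimum count of 10, glmQLFit), with treatment and class as terms over all 28 heifers, and each standard error was taken as the absolute log2FC over the root of F. For the class contrast no test is given. Treatments were tested with glmQLFTest and Benjamini-Hochberg adjustment, threshold 0.05, and with DESeq2 1.42.0 as an alternative. The scripts were tested on simulated data. Single values were tested with permutation and Fisher's exact tests in scipy 1.17.1, with 100000 resamples where not exact.

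Genes were named as list members, as the 10 largest and 10 smallest fold changes with a symbol outside the lists in which at least 11 of 13 muscle-rich heifers lay on 1 side of the muscle-poor median, as the 5 genes most like ACTA2, and as genes from the study's tables. HSPB6, RAP1GDS1, NEXN, CBLN2 and CEMIP were added after their values were seen. No pair of heifers of a treatment agreed within sampling noise (118 pairs, chi-square per degree of freedom at least 18.4). Alternatives covered the threshold, the splitting gene, covariates, scaling, filtering and tool.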

Additional observations from a re-analysis of the deposited data

Results flagged for a closer look

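Among 21 smooth muscle genes in 3 treatments, 4 of 63 groups held a heifer far from the others by Dixon's criterion, where chance flags about 5%, or 3.15 groups. CTRL1 had 1234 CPM of ACTN1, against 208 to 606 CPM in the other CTRL heifers. CTRL1 also had 42.3 CPM of MYOCD, against 1.01 to 17.7 CPM in the others. HF4, a muscle-poor heifer, had 176 CPM of MEF2A, against 128 to 151 CPM in the other HF heifers, and 55.3 CPM of ITGA1, against 11.9 to 32.4 CPM.

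DESeq2 called 2 genes whose HF over CTRL effect differed between muscle-rich and muscle-poor heifers, and edgeR called 0. ENSBTAG00000005668 had an interaction of 1.21 ± 0.25 (SE, log2, DESeq2 adjusted p = 0.0178). It held 31.1 to 40.2 CPM in the 3 muscle-rich HF and 15.1 to 28.1 CPM in the 5 muscle-rich CTRL heifers, against 26.1 to 35.1 CPM in the 7 muscle-poor HF and 33.8 to 60.2 CPM in the 3 muscle-poor CTRL heifers, so HF lay above CTRL in 1 class and mostly below it in the other. ENSBTAG00000021565 had an interaction of −17.8 ± 3.17 (adjusted p = 0.000373), a value set by sparse counts. Its median was 0 to 0.166 CPM in each combination of class and treatment, and its largest counts were 300 reads in a muscle-rich CTRL heifer and 487 in a muscle-poor HF heifer.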

How the results depend on the processing

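The count of genes at least 2-fold higher in muscle-rich heifers (383) stayed within 1.5 times under most alternatives, and was 912 with no filter on low counts, and, in fits chosen after seeing the data, 623 in CTRL heifers only and 595 in study replicate 1 alone. The count of lower genes (144) was less stable: it was 65 at an ACTA2 threshold of 1000 CPM, 72 at 2000 CPM, 35 when MYLK made the split, 84 without the 4 heifers nearest the threshold, 294 with total counts alone and 623 with no filter. In fits chosen after seeing the data it was 62 without the 4 muscle-rich heifers of low MYLK, 473 in HF, 247 in LF and 332 in CTRL heifers only, and 1088 in study replicate 1 alone. The cause was not tested. The numbers in the labels mark no shared animal, and the deviations of same-numbered heifers had a correlation above 0.1 for 5 of 8 numbers between HF and CTRL, 4 of 8 between LF and CTRL and 5 of 10 between HF and LF, with the own number best for 2, 0 and 0. With that number as a replicate block the counts were 554 higher and 761 lower, and with the class and the block edgeR called 1 gene for LF over CTRL (PHF21B, log2FC −1.64, adjusted p = 0.0214) and 0 for the other contrasts. DESeq2 with the class called 39, 7 and 12 genes for HF over CTRL, LF over CTRL and HF over LF, DESeq2 without it 114, 3 and 8, and its interaction test 2, where edgeR called 0. The HF minus LF difference of −0.0022 in log2 ACTA2 became 0.18 with MYLK in place of ACTA2. The tests of class against treatment, study replicate and depth passed no threshold at any setting. Of 1011 fold changes of 54 named genes under 19 alternatives 38 moved by more than the spread between heifers, and 0 genes at 2-fold or more changed sign. With 3 muscle-rich HF and 3 muscle-poor CTRL heifers the interaction rests on few animals.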
